A study of Mus musculus with 2 samples.

Results

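The 10 genes described here are the AP-1 and immediate early genes Jun, Junb, Jund, Fos, Fosb, Fosl2, Atf3, Egr1, Ier2 and Dusp1. They were chosen by symbol, and each had 1 row among the 32285 gene rows of 2 single-cell RNA matrices, so that all 10 members were found. The cells came from female BALB/c mice (genotype label BALB/cAnNCrl) that bore liver metastases of 4T1, a mouse mammary carcinoma line, and had received hepatic arterial infusion (HAI) of the vehicle or of CBL0137, a curaxin that binds DNA and traps the histone chaperone FACT on chromatin. One droplet library was labelled liver and one spleen, and each mixed 3 groups told apart by hashtags, which are antibodies joined to short DNA tags. Tag A0301 marked vehicle cells, A0305 those given a low and A0310 those given a high dose of CBL0137. Each group was a pool of 2 mice taken 5 days after treatment, and all groups, the vehicle included, carried the tumor. The labels and methods state no doses for these cells, and the methods describe CD11b+ bead-isolated cells while both libraries also held T and B cells.

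AP-1 is a dimer of basic leucine zipper proteins. Jun proteins pair with each other or with Fos proteins, Fos proteins need a Jun partner, and Atf3 joins the same network, mostly as a repressor. Together with Egr1, Ier2 and the phosphatase Dusp1 these genes are transcribed within minutes of a signal through MAP kinases, without new protein synthesis, and their messages decay fast. In neutrophils and monocytes they respond to microbial products, cytokines and adhesion. Warming, enzymatic digestion and bead isolation of tissue can induce the same genes, and the methods describe enzymatic digestion for liver but mechanical disruption for spleen, whereas the sample labels give the enzymatic protocol for both. Tissue, isolation and library therefore cannot be told apart in these data, and the part of handling in any level below was not tested.

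Before the results, the labels of the libraries were checked against tissue markers, which went against them. Clec4f, a Kupffer cell gene, had 0 UMIs (unique molecular identifiers, 1 per captured transcript) in the labelled-liver library, which allows up to 0.0437 UMIs per 1000000 UMIs (CPM), and 124.5 CPM in the labelled-spleen library. Alb, the albumin gene of hepatocytes, had 0 and 19.4 CPM, 8 endothelial markers summed to 7.34 and 369 CPM, and 10 B cell markers to 1962 and 477 CPM. In the names of the deposited files the 2 tissues are swapped relative to the labels, so each library is called here by its label alone. The library labelled liver held 9591 barcodes and 79585807 UMIs with 3103 vehicle, 3194 low dose and 2138 high dose cells, and the labelled-spleen library 4830 barcodes and 35672251 UMIs with 822, 1301 and 865 cells. The 2 libraries shared 15 barcode sequences. Cells were clustered without the 10 genes among the variable features and clusters were called X-like from marker lists. Because each group was 1 pooled sample per library, no test was possible and no p-value was computed. The 95% intervals below hold counting error alone and say nothing of the spread between mice.

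The promoters of 3 members are shown because Fos, Jun and Dusp1 lead much of what follows. They are the 250 bases before the RefSeq start of each gene (build GRCm38.p6), written 5′ to 3′ on the strand of the gene, with capitals for a match to TGACNTCA, the element bound by Jun-ATF dimers. Jun lies on the minus strand (window chr4:95052223-95052472), Fos on the plus strand (window chr12:85473640-85473889) and Dusp1 on the minus strand (window chr17:26508473-26508722).
Jun: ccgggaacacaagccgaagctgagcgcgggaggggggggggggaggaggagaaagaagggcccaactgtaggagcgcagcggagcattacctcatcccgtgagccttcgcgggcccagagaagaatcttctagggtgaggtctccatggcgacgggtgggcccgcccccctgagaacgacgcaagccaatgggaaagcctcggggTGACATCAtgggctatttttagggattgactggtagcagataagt
Fos: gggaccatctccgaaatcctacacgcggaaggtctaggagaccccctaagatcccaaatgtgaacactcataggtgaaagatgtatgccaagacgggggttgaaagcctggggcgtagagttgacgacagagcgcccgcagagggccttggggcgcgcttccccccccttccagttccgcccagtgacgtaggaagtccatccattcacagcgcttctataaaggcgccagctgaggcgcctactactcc
Dusp1: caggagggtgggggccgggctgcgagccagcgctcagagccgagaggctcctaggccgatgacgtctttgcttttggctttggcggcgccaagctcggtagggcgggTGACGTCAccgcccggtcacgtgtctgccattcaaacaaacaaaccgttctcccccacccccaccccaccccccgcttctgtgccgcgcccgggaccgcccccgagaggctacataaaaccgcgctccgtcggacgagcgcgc
The match in Jun, TGACATCA, starts 45 bases before the RefSeq start and that in Dusp1, TGACGTCA, 143 bases before its RefSeq start. The 2 annotations used here differ, since the Dusp1 window lies inside the GENCODE interval of that gene, chr17:26505590-26562128. The searched windows of Fosl2 and Atf3 also lie inside the GENCODE intervals of these genes. The searched Jund window, which ends at chr8:70697738, does not adjoin the GENCODE start at 70698949. Windows of 250 bases before to 50 after the start were searched on both strands for TGANTCA (the classical AP-1 element), TGACNTCA and the CArG box, the element of serum response factor, and neither of the 2 matches overlapped another motif. Of 32851 RefSeq windows, 7.81% held TGANTCA, 8.83% TGACNTCA and 1.63% a CArG box. Among the 8 members whose windows were searched, Jun and Dusp1 held the only matches, each to TGACNTCA. Bases further than 250 before a start were not searched, so the lack of a match does not mean that a gene lacks the element. Egr1 and Ier2 were left out of the search of members, so nothing can be said of motifs near their starts. A match is a run of letters and not a measured binding site.

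Among the marker-defined classes with at least 20 cells in each group, vehicle cells placed most members highest in myeloid cells. Classes with fewer cells in any group, among them plasma cell-like and dendritic cell-like cells, were left out of these orders. Fos, the founding Fos protein, was highest in neutrophil-like cells of the labelled-liver library at 512 CPM (6112 UMIs in 1426 cells), followed by 334 in monocyte-like cells. The other 6 of these classes there lay between 6.89 (1 UMI in NK cell-like cells) and 54.5 CPM, each with an interval that overlapped its neighbour in the order. Over all groups of that library, the left-out plasma cell-like cells had 293 CPM of Fos (251 to 340). The left-out conventional dendritic cell-like cells had 109 CPM. Fos was highest in monocyte-like cells of the labelled-spleen library, at 2206 CPM, then 940 in macrophage-like and 783 in neutrophil-like cells, and intervals did not overlap among these 3 classes. Atf3, a stress-induced partner of Jun, stood at 341 CPM in monocyte-like cells of the labelled-spleen library against 98.7 in macrophage-like and 39.4 in neutrophil-like cells. In the other library Atf3 reached 12.9 CPM in monocyte-like and 5.61 in neutrophil-like cells and had 0 UMIs in T, B and NK cell-like cells of the vehicle group.

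Jund and Fosb had another order among the same classes, with B cell-like cells on top. Jund, the Jun protein with the most constant expression, had 586 CPM in B cell-like, 448 in NK cell-like and 391 in T cell-like cells of the labelled-liver library against 298 in neutrophil-like cells. It had 816 CPM in B cell-like and 718 in T cell-like cells of the labelled-spleen library against 183 in its neutrophil-like cells. Fosb, whose product resembles Fos, was highest in B cell-like cells of both libraries, at 61.0 and 213 CPM, against 10.2 and 20.9 in neutrophil-like cells. T cell-like cells had 6.03 and 63.2 CPM of Fosb, below the 10.2 CPM of neutrophil-like cells in the one library and the 90.9 CPM of macrophage-like cells in the other. The B cell-like level of Fosb in the labelled-spleen library rests on 23 UMIs in 31 cells. Jun was also highest in B cell-like cells among these classes of that library, at 594 CPM against 487 in monocyte-like cells, with overlapping intervals. Plasmacytoid dendritic cell-like cells of that library, left out with 5 vehicle cells, had 956 CPM of Jun over all groups (820 to 1108), against 378 in B cell-like cells. Plasma cell-like cells of the labelled-liver library, left out with 4 vehicle cells, had 150 CPM of Fosb over all groups (120 to 184).

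Levels in vehicle neutrophil-like cells differed between the libraries in both directions. Dusp1, which removes phosphate from MAP kinases and so ends their signal, had 279 CPM in the labelled-liver library and 921 in the labelled-spleen library. Egr1, a zinc finger factor, had 105 and 259 CPM and Atf3 5.61 and 39.4, also higher in the labelled-spleen library. Jun and Jund were higher in the labelled-liver library, at 313 against 231 CPM and 298 against 183. The remaining levels were 1102 and 1196 CPM for Junb, 512 and 783 for Fos, 10.2 and 20.9 for Fosb, 54.0 and 66.9 for Fosl2 and 529 and 583 for Ier2. Neutrophil-like cells of the 2 libraries were grouped into separately made clusters, and their granulocyte progenitor markers summed to 392 CPM in the one and 5607 in the other.

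The study asked how CBL0137 HAI changes the myeloid cells that remain. High dose and vehicle neutrophil-like cells are compared here as sums over clusters. The groups differ in their clusters, so the summed ratios also hold that difference in makeup. Weighted by the vehicle cluster makeup, as described below, 1 of 8 members was lower by 2-fold in each library (0.873% and 0.486% of genes were). After the high dose every one of the 10 members was lower in the summed cells of both libraries. Of all genes counted, 77.8% were lower in the labelled-liver library and 46.6% in the labelled-spleen library. In the labelled-liver library 9 of 10 members were lower by 2-fold or more (genes needed a total of 50 UMIs in the 2 groups), where 13.3% of 7426 genes were, and the median log2 ratio of the members was -1.72 against -0.34 over all genes. Those lower by 2-fold or more were 6 of 10 in the labelled-spleen library, where 2.0% of 5406 genes were, with medians of -1.38 and 0.02. No member was higher by 2-fold in either. Fosb and Atf3 passed the minimum through the vehicle cells alone and had fewer than 50 UMIs in the high dose cells. With at least 50 UMIs in each group 7 of 8 and 4 of 8 members were lower by 2-fold. The share of all genes under this stricter minimum is not given, here or with the same counts below, so these counts have no background beside them. Macrophage markers in these cells summed to 211 CPM in vehicle cells and 102 in high dose cells in the labelled-liver library and to 164 and 328 in the labelled-spleen library, and their part in the result was not tested. The groups held 1426 and 198 cells in the labelled-liver library and 362 and 156 in the labelled-spleen library.

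In the Jun family, all 3 members were lower in both libraries. Jun (ENSMUSG00000052684, chr4:95049034-95052222 in mm10), the family's founding member, stood at 313 CPM in vehicle, 130 in low dose and 83.0 in high dose cells in the labelled-liver library, and at 231, 291 and 127 in the labelled-spleen library. Its log2 ratio at the high dose was -1.92 (95% interval -2.08 to -1.75) and -0.86 (-1.06 to -0.66). Junb (ENSMUSG00000052837, chr8:84974484-84978718), a weaker activator that often opposes Jun, stood at 1102, 1028 and 396 CPM in the first and 1196, 1642 and 453 in the second, with high dose ratios of -1.48 (-1.55 to -1.40) and -1.40 (-1.5 to -1.30). Its low dose and vehicle levels lay close together in the labelled-liver library while the high dose stood apart in both. Jund (ENSMUSG00000071076, chr8:70698949-70700616) stood at 298, 318 and 104 CPM and at 183, 318 and 105 CPM, with high dose ratios of -1.51 (-1.66 to -1.37) and -0.80 (-1.02 to -0.58). The high dose level of Jund was thus nearly the same in both libraries.

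Fos (ENSMUSG00000021250, chr12:85473890-85477273) had the lowest ratio of the members counted in both groups of the labelled-liver library. It stood there at 512 CPM in vehicle, 328 in low dose and 64.5 in high dose cells (6112, 3636 and 255 UMIs), a high dose log2 ratio of -2.99 (-3.18 to -2.81), which is 7.94-fold lower. Fos in the labelled-spleen library stood at 783, 922 and 248 CPM with a ratio of -1.66 (-1.79 to -1.53). The high dose was lowest in both, while the low dose lay below the vehicle in one library and above it in the other. Fosb (ENSMUSG00000003545, chr7:19302696-19310051) stood at 10.2, 8.48 and 2.28 CPM and at 20.9, 27.7 and 2.57 CPM, and its high dose levels rest on 9 and 6 UMIs, with ratios of -2.17 (-3.33 to -1.19) and -3.02 (-4.52 to -1.82). Fosl2 (ENSMUSG00000029135, chr5:32135801-32157842), which encodes the Fos-related protein Fra-2 and lacks a strong activation domain, moved least. It stood at 54.0, 58.0 and 38.0 CPM and at 66.9, 74.2 and 45.3 CPM, with ratios of -0.51 (-0.78 to -0.25) and -0.56 (-0.92 to -0.21), inside 2-fold in both libraries.

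Atf3 (ENSMUSG00000026628, chr1:191170296-191218039) had 67 UMIs in vehicle, 39 in low dose and 0 in high dose cells in the labelled-liver library, so that the high dose was at least 7.40-fold lower when its count of 0 was set to 3. Atf3 in the labelled-spleen library had 117, 191 and 19 UMIs, or 39.4, 48.6 and 8.13 CPM, and a ratio of -2.28 (-3.06 to -1.57). Egr1 (ENSMUSG00000038418, chr18:34859823-34864984) stood at 105, 49.9 and 17.5 CPM and at 259, 331 and 65.9 CPM, with ratios of -2.58 (-2.96 to -2.23) and -1.97 (-2.23 to -1.72). Both genes therefore lay near or beyond 4-fold lower in each library.

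Ier2 (ENSMUSG00000053560, chr8:84661331-84662852), a short-lived nuclear protein, stood at 529, 456 and 188 CPM and at 583, 737 and 301.2 CPM. Its high dose ratios were -1.49 (-1.60 to -1.38) and -0.95 (-1.08 to -0.83), the second just inside 2-fold. Dusp1 (ENSMUSG00000024190, chr17:26505590-26562128) stood at 279, 205 and 98.4 CPM and at 921, 1237 and 361 CPM, with ratios of -1.5 (-1.66 to -1.35) and -1.35 (-1.47 to -1.24). Dusp1, a brake on the pathway, was lower together with the transcription factors.

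**Figure D1:**
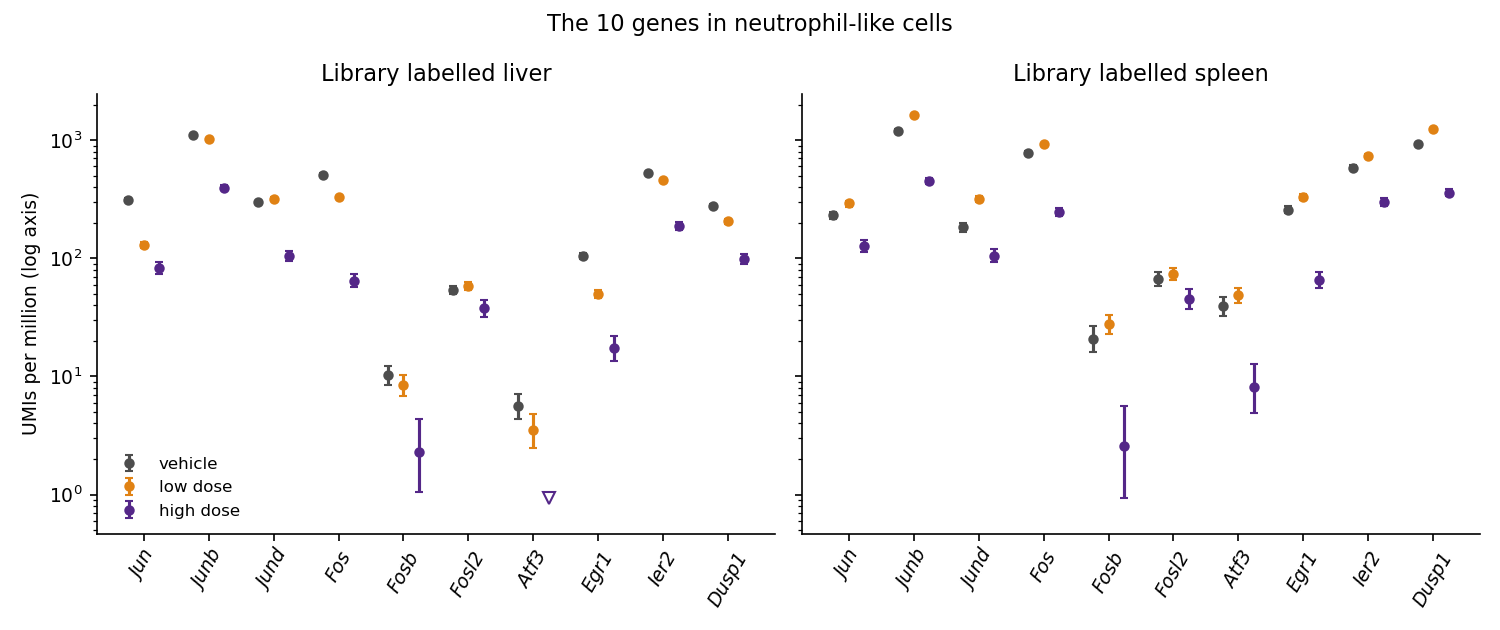
Levels of the 10 genes in neutrophil-like cells, in CPM on a log axis, for the vehicle, low dose and high dose groups of each library. Points are summed counts with exact Poisson 95% intervals and the open triangle marks the upper limit for Atf3 with 0 UMIs. The high dose point lies lowest for every gene in both libraries.

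Depth moved with the groups. The median UMIs per neutrophil-like cell were 4367, 5732.5 and 18598 after the vehicle, low and high dose in the labelled-liver library and 4921, 4267.5 and 14206 in the labelled-spleen library. Each cell was therefore thinned at random to 500 UMIs before cells with a UMI were counted, which left no cell out. Fos was then seen in 33.5% of vehicle (95% Clopper-Pearson interval 31.0 to 36.0), 22.6% of low dose cells and 5.05% of high dose cells (2.45 to 9.09) of the labelled-liver library, and in 42.5%, 42.6% and 18.6% in the labelled-spleen library. Without thinning the Fos shares were 83.8%, 76.1% and 53.0% in the first and 81.5%, 84.2% and 66.0% in the second. Egr1 was seen after thinning in 9.33%, 4.50% and 0.505% (1 cell) in the one library and 20.99%, 22.2% and 3.85% in the other. Thinned cells with UMIs of 3 or more members made up 38.8%, 23.2% and 4.55% in the labelled-liver library and 46.1%, 51.9% and 13.5% in the labelled-spleen library. Unthinned, these shares were 98.2%, 96.7% and 97.5%, and 95.03%, 96.5% and 92.9%, so that at full depth nearly every cell held several of the genes. No class of cells is known to lack these genes, so no class could serve as the background of free RNA.

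The clusters of neutrophil-like cells differed both in these genes and in their share of each group. In the labelled-liver library, cluster 5, led by Saa3, Il1b and Ccrl2, had 9016 CPM of the 10 members summed and held 357 vehicle, 179 low dose and 0 high dose cells. Cluster 2, led by Il1b, had 6103 CPM with 352, 466 and 3 cells, and cluster 7, led by Saa3 and Wfdc17, 5509 CPM with 296, 129 and 9 cells. Cluster 4, led by the stefin genes Stfa3 and Stfa2, had 1263 CPM with 235, 223 and 149 cells, and so held most high dose cells. Clusters 9 (led by Prok2 and Retnlg, 87, 191 and 23 cells) and 13 (led by the granule genes Ltf, Camp and Ngp, 99, 102 and 14 cells) had 1621 and 715 CPM. Median UMIs per cell ran from 2737 in cluster 5 to 15673 in cluster 4 and 23031 in cluster 13, in the reverse of the order of the members' levels, and the part of depth was not tested.

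The library labelled spleen had the same kind of order. Clusters 0 (led by Il1b and Ccrl2), 17 (led by Cxcl3 and Hilpda) and 12 (led by Bcl2l15 and Orm1) had 15793, 13829 and 9787 CPM of the members summed. They held 127, 26 and 2 vehicle cells, 218, 25 and 118 low dose cells and 3 high dose cells each. Cluster 7 (Retnlg and Prok2) had 4680 CPM with 57, 103 and 16 cells. Clusters 4 (stefin genes) and 2 (Camp and Ngp) had 2927 and 1031 CPM, held 67 and 83 vehicle cells, and with 71 and 60 cells made up most of the high dose group. Cluster 12 was almost a cluster of the low dose alone.

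**Figure D2:**
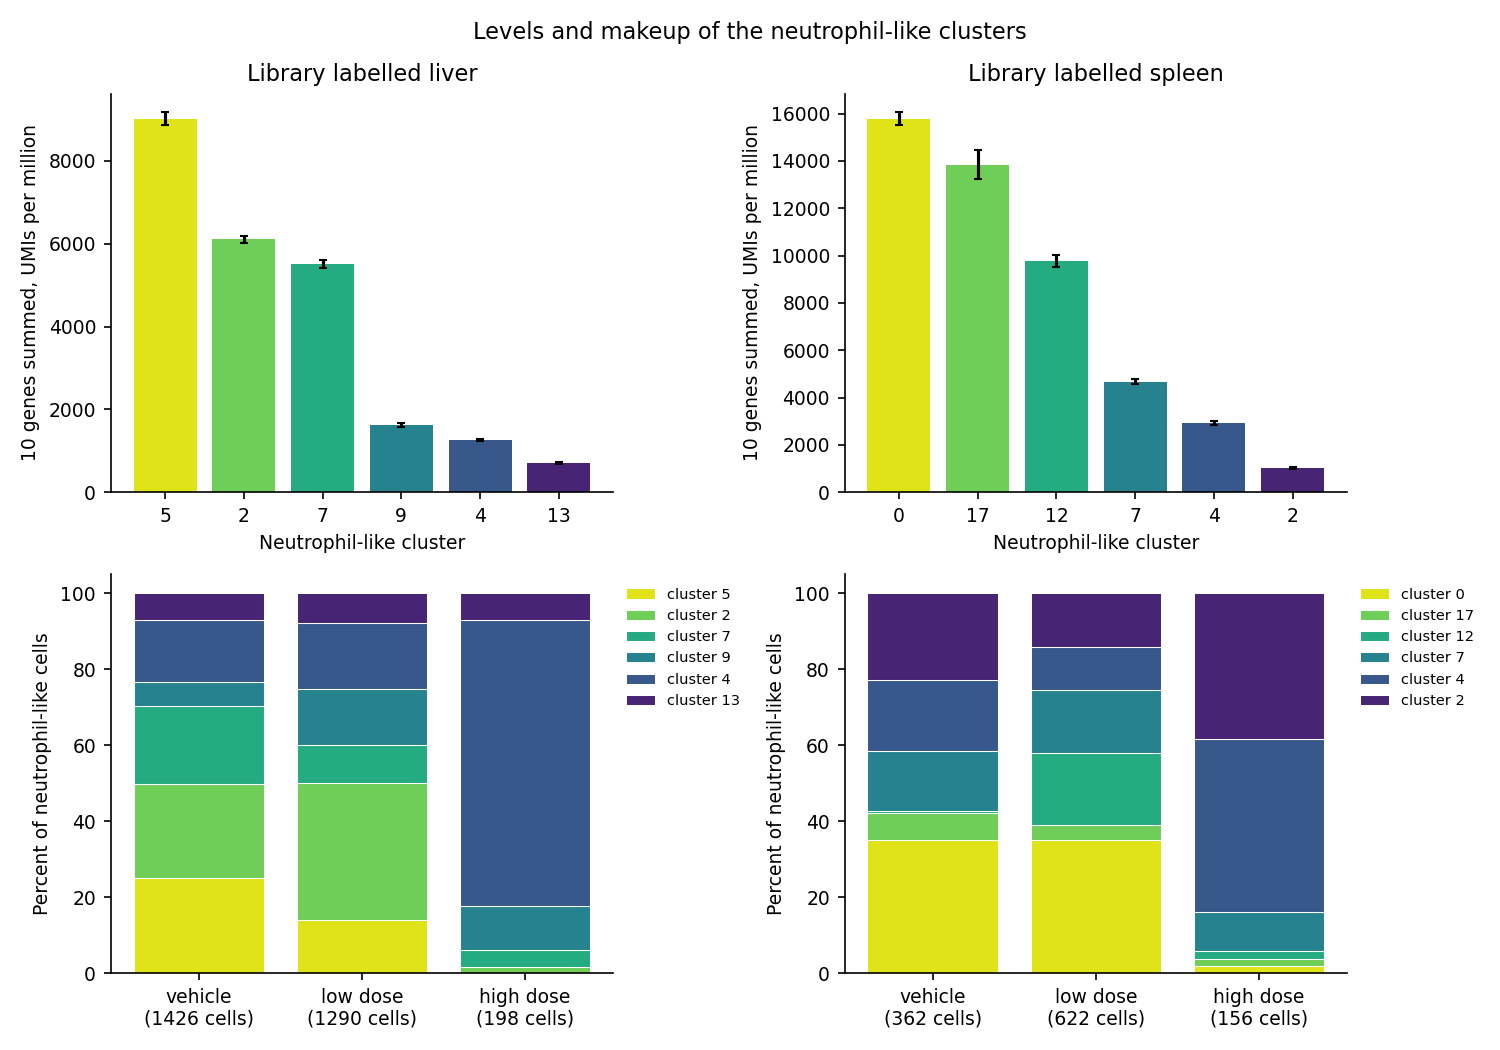
Upper panels give the 10 genes summed in each neutrophil-like cluster over all groups, in CPM with Poisson 95% intervals. Lower panels give the percent of neutrophil-like cells of each group in each cluster. The 3 clusters with the highest levels hold 0, 3 and 9 high dose cells in the labelled-liver library and 3 each in the labelled-spleen library.

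Within a cluster fewer members were past 2-fold between high dose and vehicle than in the summed cells, though Jun and Ier2 in the labelled-spleen library each had 1 cluster with a ratio further from 0 than their summed -0.86 and -0.95. In cluster 4 of the labelled-liver library 1 of 8 members was lower by 2-fold (0.599% of genes were), namely Fos at -1.27 (-1.5 to -1.05), while Ier2 stood at -0.83 (-0.97 to -0.69), Egr1 at -0.78 and Jun at -0.56. In cluster 9, with 23 high dose cells, 2 of 8 were (2.13% of genes), Fos at -2.28 (-3.05 to -1.59) and Ier2 at -1.39. The minimum held for both groups together, so a member could pass it in a cluster through the vehicle cells alone. Fos in cluster 9 rests on few high dose UMIs, as its wide interval shows. Counts with the minimum in each group are not given for these clusters. Cluster 2 of the labelled-spleen library had 1 of 8 (0.566% of genes), Jun at -1.15 (-1.52 to -0.79), and cluster 4 had 2 of 8 (0.917% of genes), Egr1 at -1.32 (-1.73 to -0.92) and Ier2 at -1.04 (-1.27 to -0.81). Dusp1 lay near 0 in both stefin clusters, at 0.04 and -0.08. When cluster levels were weighted by the makeup of the vehicle group, over clusters with at least 20 cells in both groups, 1 of 8 members remained past 2-fold in each library. Of all genes, 0.873% of 5613 were lower by 2-fold in the labelled-liver library and 0.486% of 4737 in the labelled-spleen library. The member past 2-fold was Fos at -1.53 in the labelled-liver library and Egr1 at -1.17 in the labelled-spleen library. The medians were -0.37 and -0.41 over the members against 0.04 and 0.09 over all genes. These weighted values cover only 322 of 1426 and 150 of 362 vehicle cells. The clusters richest in the genes were left out, each with fewer than 20 high dose cells. For the same reason cluster 13 of the labelled-liver library, the poorest in the genes, and cluster 7 of the labelled-spleen library were left out.

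At the low dose, which shares its vehicle cells with the comparison above, the 2 libraries differed. In the labelled-liver library 2 of 10 members were lower by 2-fold, where 1.19% of 8170 genes were, namely Jun at -1.27 (-1.36 to -1.18) and Egr1 at -1.07 (-1.22 to -0.92). Fos stood at -0.64 (-0.70 to -0.58), Dusp1 at -0.44 and Ier2 at -0.21. Junb lay at -0.10, Jund at 0.09 and Fosl2 at 0.10 (-0.06 to 0.26). In the other library 0 of 10 members were lower by 2-fold, where 1.47% of 5975 genes were, and all 10 lay above 0, from 0.15 for Fosl2 to 0.79 for Jund (0.65 to 0.94). Of all genes there, 56.7% lay below 0. The median of the members was -0.36 against -0.11 over all genes in the one and 0.35 against -0.07 in the other.

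The makeup of clusters moved with this difference. Weighted by the vehicle makeup, with cluster 12 left out for its 2 vehicle cells, 8 of 10 members lay below 0 in the labelled-spleen library, with Jund at 0.35 and Atf3 at 0.17 above 0. The weighted median of the members was -0.18, close to the -0.12 over all 5737 genes. In the labelled-liver library the weighted values stayed close to the summed ones, with Jun at -1.15 and Egr1 at -0.96. The sign of most low dose differences in the labelled-spleen library therefore differed between the summed and the weighted values.

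**Figure D3:**
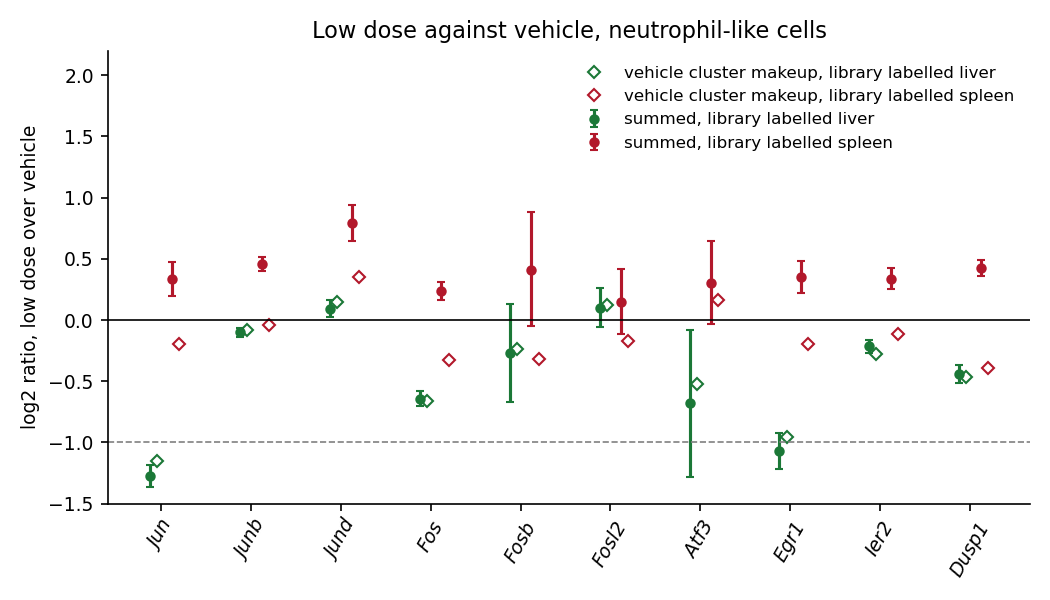
Log2 ratio of low dose to vehicle for the 10 genes in neutrophil-like cells, with filled points for summed counts (bars are exact 95% intervals) and open diamonds for values weighted by the vehicle cluster makeup, which carry no interval. Jun and Egr1 lie below the dashed 2-fold line in the labelled-liver library, and 8 of the diamonds of the labelled-spleen library lie below 0 where its filled points lie above.

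T cell-like cells differed in how far the members moved. In the labelled-liver library, with 592 vehicle and 1022 high dose cells, 1 of 8 members was lower by 2-fold at the high dose (0.154% of 8435 genes were), Jun at 99.5 CPM in vehicle cells and 49.0 in high dose cells, with a log2 difference of -1.02 (-1.27 to -0.78). Fos stood at 26.8 and 16.9 CPM, and Junb lay at -0.09 (-0.22 to 0.04) and Ier2 at -0.10 (-0.27 to 0.06). In the labelled-spleen library, with 43 and 169 cells, 4 of 7 were lower (2.0% of 4310 genes), namely Fos at -2.61 (-3.08 to -2.14, 357 against 58.4 CPM), Junb at -1.42 (-1.70 to -1.13), Fosb at -1.11 and Dusp1 at -1.07. With 50 UMIs in each group 2 of 3 were. The leading genes of the larger T cell-like cluster there, cluster 5, were Gzma, Ccl5, Gzmb and Prf1, and NK cell markers summed to 4363 and 5481 CPM. Macrophage markers summed to 54.2 and 383 CPM and granulocyte progenitor markers to 85.8 and 406 CPM. B cell markers in those T cell-like cells summed to 45.2 CPM in vehicle cells (2 of 10 markers detected) and 3054 in high dose cells (10 of 10), and neutrophil markers to 1052 and 520 CPM, and their part in the result was not tested.

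At the low dose, T cell-like cells of the labelled-liver library had 0 members lower by 2-fold (0.136% of 8079 genes were) and 1 of 8 higher (0.359%), Fosl2 at 1.70 (0.63 to 2.92) on 41 against 9 UMIs. Fosl2 reached the minimum mainly through the low dose cells, and with 50 UMIs in each group 0 of 7 members were higher. In the labelled-spleen library, 1 of 8 was lower (0.638% of 2506 genes), Fos at -1.08 (-1.51 to -0.64), and 1 higher (4.39%), Egr1 at 2.17 (1.07 to 3.53) on 91 against 7 UMIs. Egr1 passed the minimum only through the low dose cells, and with 50 UMIs in each group 0 of 3 members were higher and 1, Fos, was lower. The 15 neutrophil markers summed to 1052 CPM in the vehicle and 5345 CPM in the low dose cells of that class, and their part in the result was not tested. S100a8 and S100a9 stood there at 1.66% of their level in neutrophil-like cells, the highest value among the T and B cell-like groups. At that scale the summed neutrophil-like profile would give 27.2 of 561 CPM of Junb, 15.3 of 169 of Fos and 20.5 of 191 of Dusp1. These values are not upper limits, because neutrophil-like clusters differ in the members.

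In B cell-like cells of the labelled-liver library Fos, Fosb and Dusp1 were the members past 2-fold at the high dose. With 528 vehicle and 442 high dose cells, 3 of 8 members were lower by 2-fold (1.33% of 6765 genes were), Fos at -2.62 (-3.53 to -1.81, 107 against 14 UMIs), Fosb at -1.13 (-1.64 to -0.63) and Dusp1 at -1.09 (-1.73 to -0.47). None of these 3 had 50 UMIs in each group, and among the 4 members that did 0 were past 2-fold. Fosl2, with 13 and 9 UMIs, could not be tested. Egr1 went the other way, at 12.4 CPM in vehicle cells and 22.6 in high dose cells, a ratio of 0.87 (0.11 to 1.64). In the labelled-spleen library, with 31 and 66 cells, 3 of 4 were lower (3.66% of 928 genes), Ier2 at -2.11 (-2.94 to -1.31), Jun at -1.92 (-2.49 to -1.36) and Jund at -1.28 (-1.70 to -0.85). Of these, Jund alone had 50 UMIs in each group, while Jun had 64 and 48 and Ier2 35 and 23. NK cell markers in these cells summed to 1058 CPM in vehicle cells and 3.27 in high dose cells, and their part in the result was not tested.

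At the low dose, members past 2-fold in B cell-like cells were higher rather than lower. In the labelled-liver library 0 of 9 were lower by 2-fold (0.915% of 6996 genes were) and 2 higher (0.672%), Fosl2 at 2.07 (1.17 to 3.08) and Dusp1 at 1.08 (0.68 to 1.48). Fosl2 had 13 UMIs in vehicle and 50 in low dose cells, and so reached the minimum through the low dose cells. With 50 UMIs in each group 1 of 7 members, Dusp1, was higher. The clusters were unevenly filled, since cluster 18 held 146 low dose cells beside 2 vehicle and 1 high dose cells and cluster 19 held 46 vehicle cells beside 1 and 0. With the vehicle makeup, over clusters 1 and 8 alone, Dusp1 turned to -0.52. In the labelled-spleen library 0 of 6 were lower (3.09% of 518 genes) and 2 higher (4.44%), Fos at 1.91 (1.02 to 2.90) and Junb at 1.18 (0.64 to 1.74), the first on 57 against 13 UMIs. Both reached the minimum through the low dose cells, and with 50 UMIs in each group 0 of 2 members, Jun and Jund, were higher.

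Fos and Dusp1 were lower by 2-fold after the high dose in monocyte-like cells of both libraries and in macrophage-like cells of the labelled-spleen library. Monocyte-like cells of the labelled-liver library, 158 after the vehicle but 26 after the high dose, had 2 of 8 members lower by 2-fold (5.04% of 6726 genes were), Dusp1 at -1.36 (-2.19 to -0.63) and Fos at -1.27 (-1.60 to -0.95). Dusp1 had 218 and 16 UMIs and so passed the minimum only through the vehicle cells. Those of the labelled-spleen library, 73 and 40 cells, had 3 of 10 (1.18% of 3553 genes), Dusp1 at -1.51 (-1.74 to -1.28), Fos at -1.09 (-1.22 to -0.95) and Atf3 at -1.04 (-1.39 to -0.70). Fos there still stood at 1037 CPM after the high dose. Macrophage-like cells of the labelled-spleen library, 58 and 121 cells, had 3 of 10 (1.08% of 6469 genes), Dusp1 at -1.93 (-2.11 to -1.75), Fos at -1.80 (-1.95 to -1.64) and Fosb at -1.23 (-1.70 to -0.76). Of these macrophage-like cells, 39 after the high dose and 6 after the vehicle belonged to cluster 16, led by the Kupffer cell genes Marco and Clec4f, and the rest to cluster 3. Cluster 16 had 1186 CPM of the 10 members summed over all groups and cluster 3 had 2851, with Fos at 148 and 617 CPM and Dusp1 at 230 and 438. Within cluster 3 alone (52 vehicle and 82 high dose cells), a choice made after seeing the data, 3 of 10 members were lower by 2-fold (0.837% of 5616 genes were), Dusp1 at -1.75 (-1.95 to -1.55), Fos at -1.58 (-1.75 to -1.42) and Fosb at -1.10 (-1.60 to -0.60). Macrophage-like cells of the labelled-liver library, 63 and 64 cells, had enough UMIs for Junb and Jund alone, and 0 of 2 were lower (6.06% of 974 genes were). There Fos had 13 and 0 UMIs and Dusp1 10 and 5, at 41.9 and 37.7 CPM.

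Progenitors, endothelial cells and NK cells had fewer cells. Stem or early progenitor-like cells of the labelled-liver library, 40 and 74 cells, had 3 of 6 members lower by 2-fold at the high dose (1.18% of 6962 genes were), Fos at -1.82 (-2.60 to -1.06), Jun at -1.19 (-1.66 to -0.73) and Egr1 at -1.18 (-1.90 to -0.47). Fos had 43 and 24 UMIs and Egr1 38 and 33, so that Jun alone of these had 50 in each group. Granulocyte progenitor-like cells of the same library (109 and 43 cells) had 0 of 7 members lower by 2-fold (0.375% of 5597 genes were). In these cells 3 of 7 members lay below 0 (33.2% of genes did), with a median of 0.08 against 0.10 over all genes. Ier2 stood there at -0.50 (-0.70 to -0.31), Fos at -0.22 (-0.62 to 0.17), Fosl2 at 0.48 (-0.16 to 1.10) and Dusp1 at 0.57 (-0.24 to 1.35). NK cell-like cells (33 and 59 cells) had 0 of 3 lower (0.762% of 1444 genes), with Ier2 at -0.44 (-1.07 to 0.21). Endothelial-like cells of the labelled-spleen library (35 and 110 cells) had 0 of 5 lower (2.65% of 1889 genes), with Fos at -0.45 (-1.28 to 0.47), an interval that includes a 2-fold difference. In hepatocyte-like cells (57 and 79 cells) no member reached 50 UMIs over vehicle and high dose.

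Counted over the classes of both libraries in which a member could be tested, Fos was below the vehicle at the high dose in 11 of 11 classes and past 2-fold in 8. Jun was below it in 12 of 12 and past 2-fold in 4, and Dusp1 in 8 of 10 and past 2-fold in 7. Fosl2 was below it in 5 of 6 and never past 2-fold. Egr1 was below it in 5 of 8, with 1 interval wholly above 0, that of B cell-like cells given above. Classes of 1 library share their mice, their vehicle pool and their preparation, so these counts describe the data and are not repeats. They include members that reached the minimum through the vehicle cells alone. Across these classes the share of all genes below the vehicle ran from 33.2% in granulocyte progenitor-like to 77.8% in neutrophil-like cells, both of the labelled-liver library. The share lower by 2-fold ran from 0.154% in T cell-like to 13.3% in neutrophil-like cells, also of that library.

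**Figure D4:**
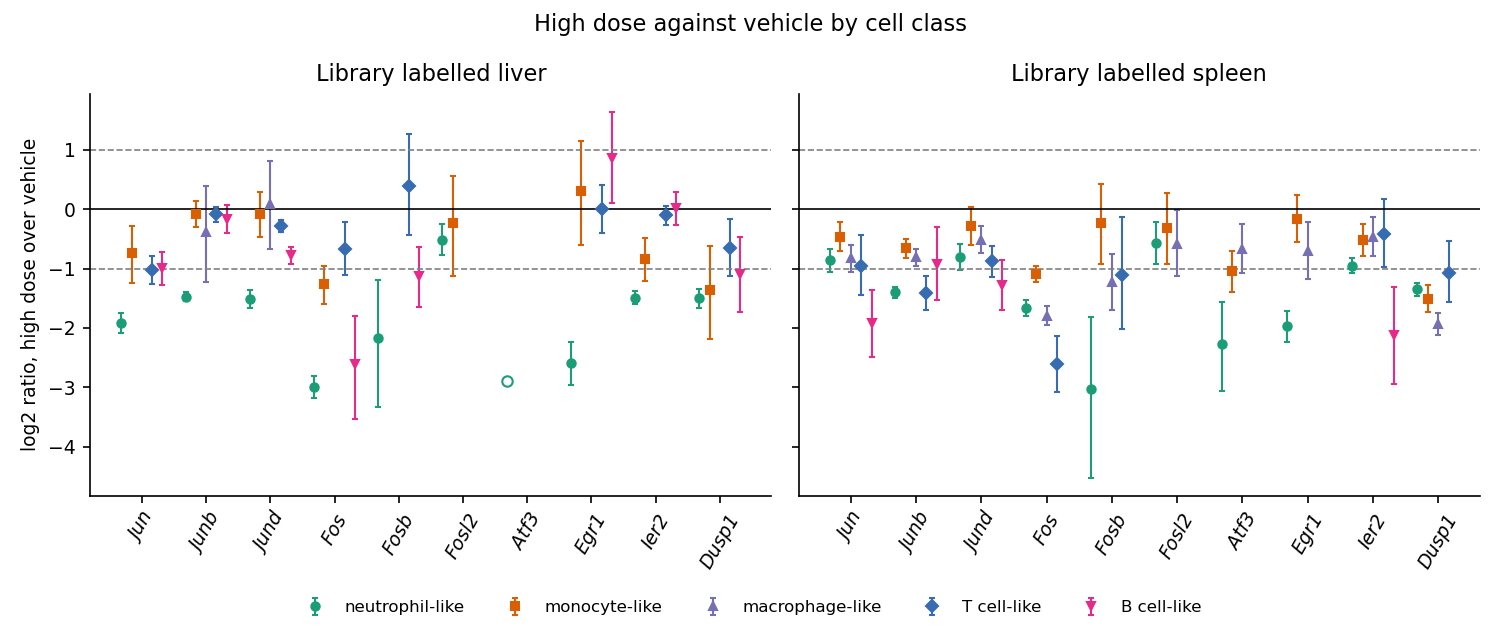
Log2 ratio of high dose to vehicle for the 10 genes in 5 cell classes, with exact 95% intervals, for genes with 50 or more UMIs in the 2 groups together. Dashed lines mark 2-fold and the open circle is the bound for Atf3 with 0 UMIs after the high dose. Fos lies below 0 in every class plotted, and in the labelled-liver library the neutrophil-like point lies lowest for each gene.

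One cluster of the labelled-spleen library, cluster 14, kept no name and was rich in the 10 genes. It held 88 cells (20 vehicle, 52 low dose and 16 high dose) with a median of 1611.5 UMIs and was led by Ccl3, Ccl4, Fosb, Furin and Osm. Its members summed to 11638 CPM, the third level among 19 clusters, and Fosb at 629 CPM was the highest of all clusters there. Fos stood at 2133 CPM in vehicle, 1720 in low dose and 67.6 in high dose cells (2 UMIs), and Egr1 at 607, 1420 and 0 CPM, where the exact 95% interval of the last reached 125 CPM. The basophil or mast cell markers were all detected (6 of 6) and summed to 6615 CPM, against 2488 for neutrophil and 1669 for monocyte markers, but the rule for a name was not met.

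Other immediate early genes followed the members in neutrophil-like cells. For the counts below, the minimum of UMIs held for both groups together, so a gene could pass it through the vehicle cells alone. Counts with that minimum in each group are not given for these lists or for the heat shock genes. At the high dose, 13.3% of all genes were lower by 2-fold in the labelled-liver library and 2.0% in the labelled-spleen library. Of the 22 on the list, 16 had enough UMIs in the labelled-liver library and 11 were lower by 2-fold at the high dose, with a median log2 ratio of -1.18 against -0.34 over all genes, and 6 of 13 were in the labelled-spleen library, with -0.87 against 0.02. Those past 2-fold in both were Ppp1r15a, which restores translation after stress, at -2.98 and -1.85, the nuclear receptor Nr4a1 at -2.34 and -1.65, the antiproliferative gene Btg2 at -1.20 and -1.47, Zfp36, whose product destroys AU-rich messages, at -1.31 and -1.02, and the factor Klf2 at -1.12 and -1.10. Of the 10 other AP-1 leucine zipper genes 6 could be tested in each library, and Batf alone was lower by 2-fold, at -1.03 and -1.06. MAP kinases and serum response factors had 4 of 14 lower in the labelled-liver library (Mapk8, Map2k7, Elk4 and Srf) and 0 of 7 in the labelled-spleen library, with medians of -0.33 and 0.01 that lay close to those of all genes.

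Heat shock genes, a list that handling can also induce, gave other counts. In neutrophil-like cells 1 of 8 was lower at the high dose in the labelled-liver library (Dnajb1 at -1.09) and 0 of 8 in the labelled-spleen library, with medians of -0.20 and 0.23, where 13.3% and 2.0% of all genes were lower. None was higher by 2-fold. In T cell-like cells of the labelled-spleen library 3 of 9 were higher (Hspd1, Hsp90aa1 and Hsph1), where 8.91% of 4310 genes were higher, with a median of 0.62 against 0.12 over all genes, where 4 of 7 members were lower. At the low dose, 0 of 8 heat shock genes were past 2-fold in neutrophil-like cells of either library.

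The members did not move as 1 block across the data. Over 20 sums of a class, group and library with at least 100 cells, Pearson correlations of log2(CPM + 10) were 0.88 for Fos with Dusp1, 0.87 for Junb with Egr1 and 0.74 for Jun with Fos, but -0.12 for Jund with Fos and -0.21 for Fosb with Ier2. Among 3385 genes, those most like Fos were Nfil3 (0.94), Il1b (0.92) and Cd14 (0.92). Those most like Dusp1 were Cxcl2 (0.94), Trib1 (0.94) and Il1b (0.93), and those most like Egr1 were Nfkbiz (0.88), Junb (0.87) and Dusp1 (0.86). Jun was most like Zfp36 (0.82), Slc2a1 (0.80) and Fth1 (0.80). With 1 CPM added in place of 10, Il1b came first for Fos, Slc2a1 for Jun and Trib1 for Dusp1. These values are descriptions, since the 20 points share libraries, pools of mice and depth, and the neutrophil-like sums make up much of their range.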

How the data were processed

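Both matrices hold deposited UMI counts per gene and barcode, which the authors made with Cell Ranger (6.0.0 in the submitters' processing notes, 5.0.0 in the matrix header) on mm10, with hashtag counts beside them. From these raw counts, barcodes were assigned with HTODemux in Seurat 5.3.0 (R 4.3.3), leaving out 616 and 215 barcodes with more than 1 hashtag and 540 and 1627 with none, and clustered after sctransform 0.4.2 without the members. A cluster was called X-like from at least 3 raised markers. Scrublet in scanpy 1.11.5 marked 2.59% and 0.0207% of barcodes, so that it did not work in the second library, and none were removed. Counts were summed per class, group and library and given per 1000000 UMIs (CPM) with exact Poisson intervals, and log2 ratios with exact conditional binomial intervals. A call is a 2-fold difference with at least 50 UMIs over both groups. The scripts were tested on simulated data. The genes named are the members, of each further list those past 2-fold with at least 50 UMIs in neutrophil-like cells of both libraries in the same direction, at most 6 a list, and the 3 genes most like each of Fos, Jun, Egr1 and Dusp1. Mapk8, Map2k7, Elk4, Srf, Dnajb1, Hspd1, Hsp90aa1 and Hsph1 were named after their values were seen. The members and lists were chosen with earlier results of these data known. Gene positions are from GENCODE mouse release 21, and promoters from RefSeq. Alternatives changed the demultiplexing, cell filters, clustering, weighting, minimum count and fold.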

Additional observations from a re-analysis of the deposited data

Results flagged for a closer look

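In neutrophil-like cells at the low dose, 6 members lay on opposite sides of the vehicle in the 2 libraries, each with an interval clear of 0. Jun stood at a log2 ratio of -1.27 in the labelled-liver library and 0.33 in the labelled-spleen library. Egr1 stood at -1.07 and 0.35, Fos at -0.64 and 0.24 and Dusp1 at -0.44 and 0.43. Ier2 stood at -0.21 and 0.34 and Junb at -0.10 and 0.46. These are ratios of summed counts. Weighted by the vehicle cluster makeup, all 6 lay below 0 in the labelled-spleen library too, from -0.39 for Dusp1 to -0.04 for Junb. Those weighted values leave out cluster 12, with 118 low dose and 2 vehicle cells. In B cell-like cells Jund stood at -0.36 and 0.71 and Fos at -0.46 and 1.91, the last on 57 against 13 UMIs. These differences between libraries were not tested, since each group was 1 pool per library.

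Among the 540 barcodes of the labelled-liver library that carried no hashtag and entered no comparison, Fosb stood at 21.1 CPM (53 UMIs, 95% interval 15.8 to 27.6), above the 13.9 CPM of all vehicle cells (12.5 to 15.4). The other 9 members were lower in these barcodes than in vehicle cells, for example Junb at 126 against 619 CPM, Fos at 51.0 against 295 and Ier2 at 74.5 against 336, with overlapping intervals for Atf3.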

How the results depend on the processing

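No paired analysis was possible because each group was 1 pooled sample per library. The count of members past 2-fold at the high dose in neutrophil-like cells went from 9 to 1 in the labelled-liver library and from 6 to 1 in the labelled-spleen library with the vehicle cluster makeup, and to 10 in the latter as a mean over cells. Of all genes, 0.873% and 0.486% were lower with that makeup, and 9.2% in the latter library as a mean over cells. The low dose count of the labelled-spleen library went from 0 to 1 at 1.5-fold, and in the labelled-liver library from 2 to 1 with the vehicle makeup or without the 20 most abundant genes and to 4 at 1.5-fold. At 1.5-fold, 5.37% of all genes were higher in the labelled-spleen library and 6.49% lower in the labelled-liver library. For T cell-like cells of the labelled-liver library, the high dose count of 1 became 2 with MULTIseqDemux or log-normalization, 3 at 1.5-fold and 0 with the filter on genes and mitochondrial UMIs, without Scrublet calls or as a mean over cells. Its low dose count of 1 became 0 with that filter, without Scrublet calls or with log-normalization, and 2 (1 lower and 1 higher) at 1.5-fold or a minimum of 1 UMI. Of all genes, 1.97% were lower and 2.70% higher at 1.5-fold, and 12.5% and 8.25% at that minimum. For the high dose, 1.73% of all genes were lower at 1.5-fold, 0.368% with MULTIseqDemux and 0.288% with log-normalization. With the filter 0.181% were lower, without Scrublet calls 0.095% and as a mean over cells 0.130%. At the low dose, 0.378% were higher with that filter, 0.422% without Scrublet calls and 0.324% with log-normalization. In the labelled-spleen library the T cell-like high dose count went from 4 to 2 at resolution 1.6, where 1.20% of all genes were lower. Its low dose count went from 2 (1 lower and 1 higher) to 1 (higher) with the dominant hashtag or a mean over cells. There 1.38% and 1.64% of all genes were lower and 4.22% and 5.03% higher. At 1.5-fold the low dose count was 4 (1 lower and 3 higher). At 1.5-fold in the low dose comparison, 5.39% of all genes were lower and 11.65% higher. B cell-like counts in the labelled-liver library went from 3 (all lower) to 6 (5 lower and 1 higher) at 1.5-fold at the high dose. At the low dose they went from 2 (all higher) to 1 (higher) with the dominant hashtag and 0 with the vehicle makeup. There 0.783% and 0.471% of all genes were higher. At 1.5-fold the low dose count was 4 (1 lower and 3 higher). At 1.5-fold, 6.075% of all genes were lower and 2.42% higher at the high dose, and 4.445% and 4.29% at the low dose. Those in the labelled-spleen library went from 3 to 6 at a minimum of 20 or 1 UMIs (high dose) and from 2 to 4 with log-normalization or at 1.5-fold (low dose). Of all genes there, 6.46% were lower at a minimum of 20 UMIs and 34.9% at 1 UMI, so that the share of all genes rose too. At the low dose, 2.6% were higher with log-normalization and 11% at 1.5-fold.

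With the vehicle makeup, log2 ratios turned to 0.64 for high dose Atf3 in neutrophil-like cells (library labelled liver, from bounds), to -0.52 for Dusp1 in B cell-like cells at the low dose (library labelled liver) and to 0.49 for Fosb in T cell-like cells at the high dose (library labelled spleen). Atf3 had 1 UMI in cluster 4 and 0 in cluster 9 over all groups, the clusters weighted there. Its value rests on counts of 0 set to 3, so its sign says nothing of the gene. Fosb did not reach the minimum in cluster 5, the only cluster weighted there. Differences in the share of cells with a UMI, high dose minus vehicle in percentage points, turned as follows. Thinned to 1000 UMIs, Fos stood at 0.228 in T cell-like cells of the labelled-liver library and Junb at -5.45 in B cell-like cells of the labelled-spleen library. Without thinning, Junb stood at 3.22 in T and 0.777 in B cell-like cells of the labelled-liver library, and at 1.15 in neutrophil-like and -2.93 in B cell-like cells of the labelled-spleen library. The cause was not tested. Of the values for single genes, 957 stayed within their limits, 160 moved beyond them and 9 turned.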
